A study of Mus musculus with 9 samples.

Results

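The genes described here encode subunits of the mitochondrial respiratory chain and ATP synthase. They are 98 of the 54456 gene names in the authors' count table, of which 85 are nuclear and 13 are the protein-coding genes of the mitochondrial genome. Members were taken by name alone, with no measured value. Nuclear names were Ndufa, Ndufb, Ndufc, Ndufs or Ndufv followed by a number only, and Sdha, Sdhb, Sdhc and Sdhd. Names beginning with Uqcr, Atp5 or Cox4 to Cox8 were also taken. Mitochondrial names were the mt- names of the Nd, Co, Atp and Cytb genes. Of 109 matching names, 11 marked -ps as pseudogenes were left out, whereas Cox6c2 stayed in by its name although RefSeq lists it as a pseudogene. On low counts 4 nuclear genes failed the filter, Cox6a2, Cox7b2, Cox8b and Cox8c, which are forms known from striated muscle, brown fat or testis and which reached at most 0.74 CPM (each library's counts divided by its scaled size, as CPM) in any library. The other 94 were tested.

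The study compared sorted epithelial cells of the wild-type mouse mammary gland, aggregated and left to migrate in Matrigel toward beads soaked in FGF10. The 3 mixed aggregates held a 50% mixture of both cell types, the 3 luminal aggregates held luminal cells only, and the 3 basal aggregates held basal cells only. Basal cells form the outer, contractile layer of the mammary duct and luminal cells its inner, secretory lining. All groups share the FGF10 beads and a migration time that the treatment label gives as 56 hours and the titles as 55 hours, no group without FGF10 was analysed here, and the labels give neither strain nor age nor whether replicates came from separate animals, so the p-values measure only the spread between these samples.

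The respiratory chain passes electrons from NADH through complex I, and from succinate through complex II, by way of ubiquinone to complex III, cytochrome c and complex IV, where oxygen is reduced, and complex V makes ATP from the proton gradient. Complex II is encoded in the nucleus only, while complexes I, III, IV and V are built from subunits of both genomes. Nuclear subunit genes are commonly controlled by NRF1, GABPA, YY1 and the estrogen-related receptors with their coactivator PGC-1alpha, whereas mitochondrial genes are transcribed as long polycistronic RNAs that are cut into single messages.

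Library totals ran from 15585324 to 19164405 counts. The 12 basal and 12 luminal markers followed the labels: summed basal markers reached 7413 to 8738 CPM in mixed, 1443 to 2876 CPM in luminal and 12378 to 13992 CPM in basal libraries, and summed luminal markers 10382 to 12098, 9124 to 12402 and 3634 to 4065 CPM in mixed, luminal and basal libraries. The column names of the count table carry 3 kinds of library code. Series A holds mixed 1, 2 and 3 and basal 2, series B holds luminal 1 and basal 1 and 3, and series C holds luminal 2 and 3. The sources used here do not say what the codes mark. Mixed and luminal aggregates share no code series, so for that comparison the series and the group cannot be told apart except by way of the basal libraries. Immune markers also differed among the basal libraries. The 8 markers summed to 47.6 CPM in basal 2, against 4.62 CPM in basal 1 and 4.02 CPM in basal 3. Mixed libraries had 43.8 to 66.4 CPM and luminal libraries 22.3 to 53.8 CPM. Luminal 1, of series B like basal 1 and 3, had 26.3 CPM. Cd74 made up 27.3 CPM of the basal 2 sum, and Ptprc, the defining leukocyte marker, was at or below 0.71 CPM in every library. Their part in the results below was not tested. Within series B the luminal arm is luminal 1 alone, and within series A the basal arm is basal 2 alone; such a lone library is assumed to vary like the other groups in the fit. Because basal 2 stands apart from basal 1 and 3, results are given over all libraries, within code series and without basal 2.

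Upstream sequences were available from RefSeq (GRCm38.p6) for 69 of the nuclear genes, as the 250 bases before the annotated start. The NRF1 motif, GCGCA and GCGC with any base between them, searched like the others on both strands, was present in 12 of these windows (17.4%), against 3.86% of 27025 windows of the same length. ETS motif matches (CCGGAAGT, bound by GABPA) were found in 3 windows (4.35%, against 2.93% of all), YY1 matches (AANATGGC) in 4 (5.8%, against 3.93%) and a match to the estrogen-related receptor motif (TCAAGGTCA) in 1 (1.45%, against 0.366%). The windows printed here are examples of the first and the last kind and that of Ndufa6, the nuclear gene with the clearest difference between pure aggregates, which holds no match. Each runs 5′ to 3′ along the gene's strand and ends before the first annotated UTR. Capitals mark the NRF1 matches in Cox6a1 and Ndufs5 and, on the opposite strand, the receptor motif in Atp5g3. A match is a description of letters, not a site in use.

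Cox6a1, chr5:115348982-115349208, minus strand: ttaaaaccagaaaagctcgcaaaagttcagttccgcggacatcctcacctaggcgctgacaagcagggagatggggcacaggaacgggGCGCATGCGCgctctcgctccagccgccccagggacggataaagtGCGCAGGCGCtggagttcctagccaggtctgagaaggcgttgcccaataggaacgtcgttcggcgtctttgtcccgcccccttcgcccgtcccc
Ndufs5, chr4:123718203-123718436, minus strand: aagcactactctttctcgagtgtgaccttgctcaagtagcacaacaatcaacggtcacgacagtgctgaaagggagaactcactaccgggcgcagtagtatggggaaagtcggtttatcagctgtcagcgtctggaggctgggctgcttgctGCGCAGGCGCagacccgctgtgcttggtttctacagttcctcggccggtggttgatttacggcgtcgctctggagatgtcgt
Atp5g3, chr2:73911327-73911576, minus strand: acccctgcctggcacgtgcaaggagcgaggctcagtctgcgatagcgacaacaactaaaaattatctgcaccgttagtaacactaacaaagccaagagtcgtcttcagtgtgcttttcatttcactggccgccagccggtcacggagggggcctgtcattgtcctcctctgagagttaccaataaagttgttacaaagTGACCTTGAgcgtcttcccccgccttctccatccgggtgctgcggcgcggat
Ndufa6, chr15:82354323-82354541, minus strand: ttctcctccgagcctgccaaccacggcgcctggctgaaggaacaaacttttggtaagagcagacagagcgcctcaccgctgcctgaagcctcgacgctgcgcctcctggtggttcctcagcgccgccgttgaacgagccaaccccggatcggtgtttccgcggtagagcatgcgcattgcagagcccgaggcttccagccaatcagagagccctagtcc

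The mitochondrial genes separated the 3 groups, and the nuclear genes did not. Summed over the 13 mitochondrial genes, mixed libraries had 28769, 26998 and 29545 CPM, luminal libraries 10772, 11077 and 10490 CPM, and basal libraries 18984, 22121 and 18309 CPM. Mixed libraries were thus all highest, luminal libraries all lowest, and no group overlapped another. As a share of raw counts, these genes took 2.73 ± 0.085% in mixed, 1.05 ± 0.019% in luminal and 2.11 ± 0.068% in basal libraries (SD, n = 3 each). The 85 nuclear genes summed to 22098, 18911 and 21520 CPM in mixed, 13181, 16647 and 11770 CPM in luminal, and 12350, 22381 and 14299 CPM in basal libraries. Here the basal libraries spanned the range of the other groups, because basal 2 lay with the mixed libraries and basal 1 and 3 lay with the luminal ones.

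The ratio of both sums moved accordingly. On the log2 scale, the mitochondrial over nuclear sum was 0.38, 0.51 and 0.46 in mixed, -0.29, -0.59 and -0.17 in luminal, and 0.62, -0.02 and 0.36 in basal libraries. All luminal libraries lay below all others, while mixed and basal libraries overlapped. Differences between group means were -0.67 for luminal minus basal, 0.80 for mixed minus luminal and 0.13 for mixed minus basal. With counts taken per kilobase of exon they were -0.71, 0.67 and -0.05, so the sign of mixed minus basal turned. In these bulk libraries, fewer cells of a type and less RNA per cell cannot be told apart.

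**Figure D1:**
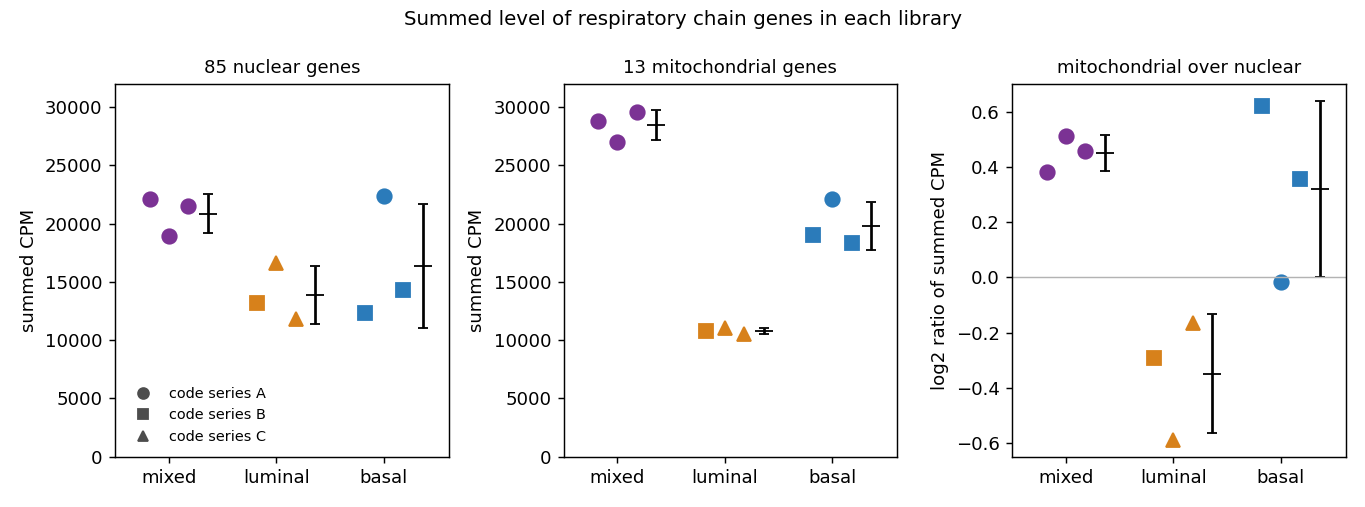
Summed CPM of the 85 nuclear genes (left) and 13 mitochondrial genes (middle), and the log2 ratio of the mitochondrial over the nuclear sum (right), in 3 mixed, 3 luminal and 3 basal libraries. Points are libraries, marker shapes are code series, and black bars are the mean ± SD. The mitochondrial sums lie at 26998 to 29545 CPM in mixed, 10490 to 11077 CPM in luminal and 18309 to 22121 CPM in basal libraries without overlap, whereas the nuclear sum of basal 2 (22381 CPM) lies with the mixed libraries.

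Between the pure aggregates, 9 of the 13 mitochondrial genes were lower in luminal than in basal libraries and 0 were higher, also at an unadjusted p under 0.05 and by DESeq2 and limma-voom (edgeR's quasi-likelihood test, adjusted p under 0.05), against 14.4% of all 18051 tested genes called lower and 12.8% called higher. Their median log2 difference was -0.88, beside -0.02 for all tested genes. For 10 of the 13 the luminal and basal libraries did not overlap, all in that direction, against 23.4% of all genes. Without basal 2 the call stood for 8 genes (median -0.82; 12.4% of all genes), and within series B, with luminal 1 against basal 1 and 3, for 5 genes (median -0.75; 6.8% of all genes). All 13 differences were below 0 in all 3 fits.

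The complex I subunit gene mt-Nd1 (mitochondrial genome, 2751 to 3707, plus strand; coordinates are mm39) showed the largest of these differences. It had 1730, 1953 and 1558 CPM in luminal libraries, against 3672, 5424 and 3308 CPM in basal libraries, with 5347, 5107 and 5712 CPM in mixed libraries. The luminal libraries lay far below both other groups, and basal 2 lay among the mixed libraries. Luminal minus basal came to -1.24 ± 0.21 (log2 ± SE; edgeR, adjusted p = 0.00094), -1.01 within series B (edgeR, adjusted p = 0.011) and -1.01 without basal 2 (edgeR, adjusted p = 0.00043). The cytochrome b gene mt-Cytb (14145 to 15288, plus strand), the single mitochondrial subunit of complex III, had 2145, 1978 and 1887 CPM in luminal and 4101, 4492 and 3593 CPM in basal libraries. Luminal minus basal was -1.02 ± 0.16 (log2 ± SE; edgeR, adjusted p = 0.00068) and -0.84 within series B (edgeR, adjusted p = 0.017). Basal 2 was here close to basal 1 and 3.

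The other 7 genes called lower in luminal libraries were mt-Nd2, mt-Nd3 and mt-Nd4l of complex I, mt-Co1 and mt-Co2 of complex IV, and mt-Atp6 and mt-Atp8 of complex V, with log2 differences of -0.81 to -1.06. The catalytic core subunit mt-Co1 (5328 to 6872), which holds the oxygen-binding centre, had 2948, 3188 and 4298 CPM in luminal and 6106, 5997 and 6129 CPM in basal libraries, so the basal libraries were nearly level and the luminal ones lower. Its difference was -0.81 ± 0.19 (log2 ± SE; edgeR, adjusted p = 0.0092) and -1.05 within series B (edgeR, adjusted p = 0.022). The call for mt-Nd3 ended without basal 2 (-0.48; edgeR, adjusted p = 0.15). Not called were mt-Co3 (-0.45), mt-Nd4 (-0.56), mt-Nd5 (-0.42) and mt-Nd6 (-0.20 ± 0.18 SE; edgeR, adjusted p = 0.48).

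The complex I gene mt-Nd6 (13552 to 14070) is the single mitochondrial member encoded on the minus strand, so its RNA comes from the other strand's transcript. It had 711, 715 and 715 CPM in mixed, 302, 342 and 213 CPM in luminal and 305, 353 and 328 CPM in basal libraries. The luminal and basal libraries overlapped, and the mixed libraries stood well above both. Mixed minus basal was 1.12 ± 0.18 (log2 ± SE; edgeR, adjusted p = 0.003), close to that of mt-Atp6 (1.12 ± 0.24 SE; edgeR, adjusted p = 0.013), and 1.02 within series A (edgeR, adjusted p = 0.06). Reads were counted without strand, so reads of the opposite strand over mt-Nd6 cannot be told apart from its own.

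Mixed aggregates had higher levels than basal aggregates in 8 of 13 mitochondrial genes, against 6.39% of all tested genes, with a median log2 difference of 0.72 (all genes -0.07). These were mt-Nd3, mt-Nd4, mt-Nd5, mt-Nd6, mt-Cytb, mt-Co2, mt-Co3 and mt-Atp6, with differences of 0.64 to 1.12. Without basal 2 there were 11 (median 0.78; 13.9% of all genes), and within series A, with 3 mixed libraries against basal 2 alone, there were 0 of 13 by edgeR and 5 at an unadjusted p under 0.05, with no other tool run with that term (median 0.40, 12 of 13 differences above 0; 2.93% of all genes). The count also depended on other basal and mixed libraries: it was 1 without basal 3, 3 without basal 1, mixed 1 or mixed 3, and 4 without mixed 2, while the median stayed at 0.62 or more. Of all genes, 558 of 18910 were called higher without basal 3, 706 of 18853 without basal 1 and 774 to 889 without a mixed library.

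Against luminal aggregates, all 13 mitochondrial genes were higher in mixed aggregates, against 15.2% of all tested genes, by 1.02 (mt-Nd4l) to 2.15 (mt-Atp6) on the log2 scale and with a median of 1.57 (all genes -0.05). The ATP synthase gene mt-Atp6 (7927 to 8607) had 306, 263 and 291 CPM in mixed, 62.1, 80.2 and 51.7 CPM in luminal and 104, 186 and 106 CPM in basal libraries. Its 3 groups did not overlap, and basal 2 was again the basal library nearest to the mixed ones. With the code series as a term, all 13 differences stayed above 0 (0.80 to 1.38, median 1.08), of which that of mt-Cytb passed the test (1.34; edgeR, adjusted p = 0.029; 2.05% of all genes).

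Being higher in mixed libraries than in both pure groups was called for 8 mitochondrial genes and for 2 nuclear ones, Ndufb1 and Cox7c, against 1.03% of all tested genes. The 8 are the genes named above for mixed against basal libraries. Those numbers are over all libraries. Without basal 2 they were 11 mitochondrial and 47 nuclear genes, so the contrast of 8 with 2 depended on basal 2. The matching share of all genes was not summarised without basal 2.

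Per 1000 exon bases, mt-Nd1, mt-Cytb and mt-Co1 were the most abundant of the 98 members in every group. In mixed libraries mt-Nd1 averaged 5631, mt-Cytb 5536 and mt-Co1 4741 CPM per kilobase, with 1826, 1751 and 2251 in luminal and 4320, 3551 and 3934 in basal libraries. At the other end mt-Nd4l had 59.5, 29.3 and 53.9 CPM per kilobase in mixed, luminal and basal libraries. The mitochondrial genome has near-identical copies in the nucleus, and multi-mapped pairs were left out of the counts, which limits the comparison of levels between these genes. Of mt-Atp8, 21.1% of the exon bases are shared with mt-Atp6.

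**Figure D2:**
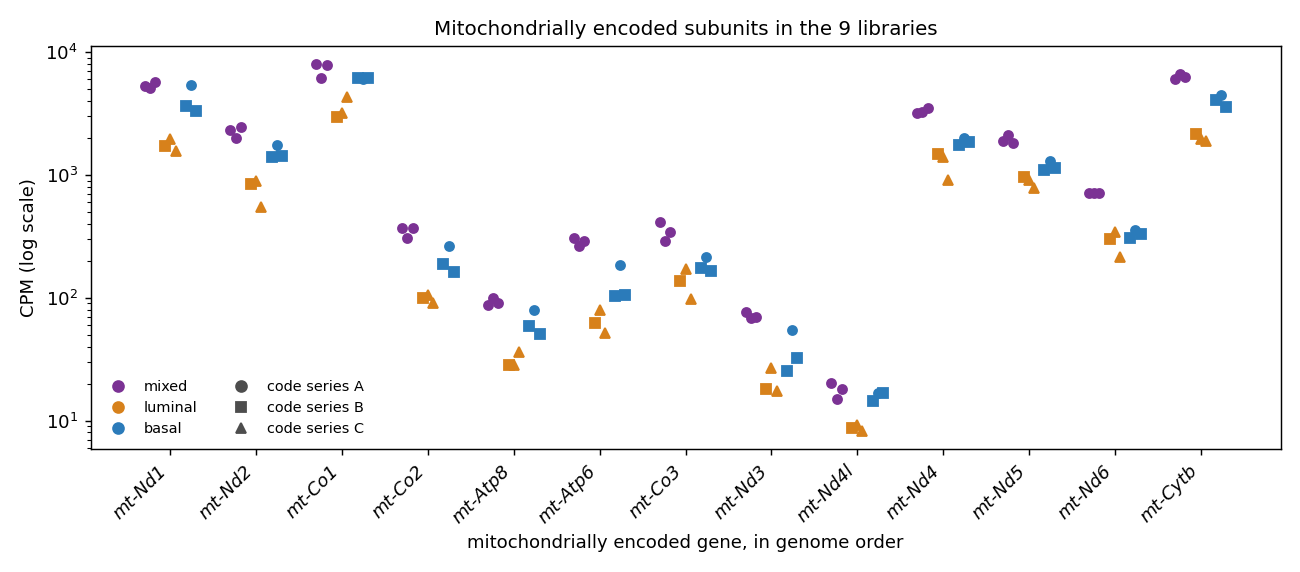
CPM (log axis) of the 13 mitochondrially encoded genes in genome order, in 3 mixed, 3 luminal and 3 basal libraries, with marker shapes for the code series. Mixed libraries lie above luminal libraries for every gene, luminal libraries lie below basal libraries without overlap for 10 genes, and for mt-Nd6 luminal (213 to 342 CPM) and basal libraries (305 to 353 CPM) overlap.

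Of the 81 tested nuclear genes, luminal aggregates had 1 called higher than basal aggregates, Ndufa6, and 0 called lower by edgeR, where 12.8% and 14.4% of all genes were called. Lower at an unadjusted p under 0.05 were 7 genes, and DESeq2 called 7 (3119 of all 18007 genes) and limma-voom 1 (2665 of all 18051). The libraries did not overlap for 1 gene in the higher and 5 genes in the lower direction, against 23.2% and 23.4% of all genes. The median log2 difference was -0.23 over all libraries, 0.02 within series B and 0.10 without basal 2, beside -0.02 for all genes. By complex, the medians over all libraries were -0.20 for I, 0.00 for II, -0.21 for III, -0.36 for IV and -0.29 for V, and without basal 2 they were 0.14, 0.10, 0.13, 0.09 and -0.03 in the same order.

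Ndufa6 (chromosome 15, 82234341 to 82238523, minus strand), an accessory subunit of the matrix arm of complex I, had 190, 176 and 204 CPM in mixed, 152, 199 and 122 CPM in luminal and 58.0, 115 and 65.6 CPM in basal libraries. Every luminal and mixed library lay above every basal one. Luminal minus basal was 0.99 ± 0.26 (log2 ± SE; edgeR, adjusted p = 0.015), 1.30 within series B (edgeR, adjusted p = 0.010) and 1.34 without basal 2 (edgeR, adjusted p = 0.00064). The call ended without luminal 2 (0.79; edgeR, adjusted p = 0.065) and without basal 3 (0.87; edgeR, adjusted p = 0.067).

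With luminal 1 as the single luminal library of series B, Ndufv3 was called higher as well and Cox6b2 lower, which made 2 higher and 1 lower of 81 (7.09% and 6.8% of all genes). Ndufv3 (chromosome 17, 31739089 to 31750305), a small accessory subunit of the NADH-binding module of complex I, had 151, 133 and 129 CPM in mixed, 93.4, 121 and 82.8 CPM in luminal and 48.6, 108 and 52.2 CPM in basal libraries. Only basal 2 reached the range of the luminal libraries. Luminal minus basal was 0.51 ± 0.28 over all libraries (log2 ± SE; edgeR, adjusted p = 0.21), 0.89 within series B (edgeR, adjusted p = 0.039) and 0.97 without basal 2 (edgeR, adjusted p = 0.0026). Cox6b2, the testis form of a complex IV subunit, was scarce, with 0.43 CPM in luminal 1 against 5.83 CPM in basal 1 and 7.42 CPM in basal 3, but luminal 2 had 4.27 CPM (within series B -3.92; edgeR, adjusted p = 0.031; over all libraries -1.72; edgeR, adjusted p = 0.085).

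Comparing mixed with basal aggregates, 4 nuclear genes were higher (6.39% of all genes were) and 2 were lower (7.33% of all genes were). The higher ones were Ndufa6 (1.26 ± 0.26), Ndufb1 (1.14 ± 0.34), Ndufv3 (0.99 ± 0.28) and Cox7c (0.68 ± 0.19; log2 ± SE, edgeR adjusted p of 0.01, 0.047, 0.04 and 0.037), small accessory subunits of complex I or, for Cox7c, of complex IV. The lower ones were Sdha and Uqcrc1. Within series A, 0 of 81 were called in either direction by edgeR (2.93% and 1.79% of all genes were), with 1 higher and 5 lower at an unadjusted p under 0.05, and the median was -0.01, where it was 0.55 over all libraries. Without basal 2, 60 nuclear genes were higher (13.9% of all genes) and 2 were lower (13.1% of all genes), again Sdha and Uqcrc1, and the median was 0.97. Leaving out other libraries gave 0 to 4 nuclear genes called higher, with 0 without basal 3 and 1 without basal 1, any mixed library or luminal 1. Of all genes, 558 to 1053 were then called higher.

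Sdha (chromosome 13, 74470373 to 74498399, minus strand), the flavoprotein that oxidises succinate in complex II, had 259, 230 and 205 CPM in mixed, 411, 326 and 501 CPM in luminal and 435, 293 and 396 CPM in basal libraries. All mixed libraries lay below all others, and basal 2 was the lowest basal library. Mixed minus luminal was -0.84 ± 0.21 (log2 ± SE; edgeR, adjusted p = 0.013) and -0.33 with the series as a term (edgeR, adjusted p = 0.83). Mixed minus basal was -0.70 ± 0.21 (log2 ± SE; edgeR, adjusted p = 0.047), with -0.34 within series A (edgeR, adjusted p = 0.53) and -0.86 without basal 2 (edgeR, adjusted p = 0.0081). Over all libraries, none of the other 3 subunits of complex II was called, while Sdhb (0.50) and Sdhd (0.47) were higher in mixed than basal libraries without basal 2. Sdhb, its iron-sulfur subunit, had 305, 284 and 287 CPM in mixed, 273, 345 and 246 CPM in luminal and 184, 350 and 225 CPM in basal libraries, and the membrane anchors Sdhc and Sdhd also had basal 2 as their highest basal library. Uqcrc1 (chromosome 9, 108765701 to 108778691), a core subunit of complex III, had 419, 416 and 365 CPM in mixed, 427, 493 and 401 CPM in luminal and 518, 591 and 616 CPM in basal libraries. Here basal 2 lay within the other basal libraries, and mixed minus basal was -0.52 ± 0.16 over all libraries (log2 ± SE; edgeR, adjusted p = 0.049), -0.56 within series A (edgeR, adjusted p = 0.15) and -0.52 without basal 2 (edgeR, adjusted p = 0.026). The calls of Sdha and Uqcrc1 against basal aggregates ended without any mixed library, luminal 1, basal 1 or basal 3, and that of Uqcrc1 also without luminal 3, with differences of -0.58 to -0.80 for Sdha and -0.48 to -0.59 for Uqcrc1.

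**Figure D3:**
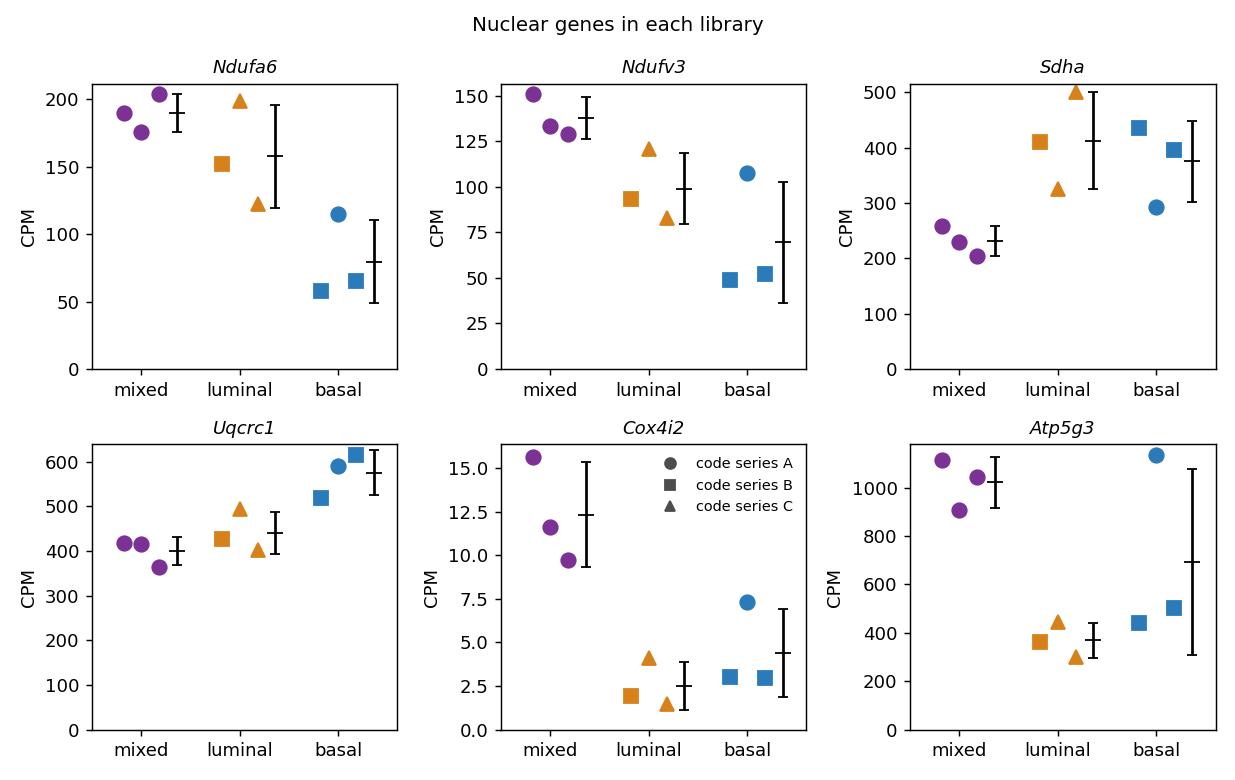
CPM of 6 nuclear genes in 3 mixed, 3 luminal and 3 basal libraries, with marker shapes for the code series and black bars for the mean ± SD; vertical axes start at 0. Ndufa6 is lowest in basal libraries (58.0 to 115 CPM) and Sdha in mixed libraries (205 to 259 CPM), and for Ndufv3, Cox4i2 and Atp5g3 basal 2 lies above basal 1 and 3.

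Mixed aggregates had 31 nuclear genes called higher than luminal aggregates (15.2% of all genes were) and 1 lower, Sdha (14.2% of all genes were). The median was 0.76, and the mixed and luminal libraries did not overlap for 56 genes in this direction and 1 in the other, against 25% and 26.1% of all genes. By complex, 11 of 36 genes of complex I, 0 of 4 of II, 3 of 8 of III, 11 of 16 of IV and 6 of 17 of V were called higher. Cox4i2 (2.29), Atp5k (1.59), Atp5g3 (1.47), Atp5g1 (1.45), Ndufa5 (1.37) and Cox5a (1.32) had the largest log2 differences. With the code series as a term, 0 of the 81 were called by edgeR (2.05% and 0.67% of all genes were called higher and lower) and 1 was higher at an unadjusted p under 0.05, the median was -0.08, and the 31 genes ranged from -0.15 to 1.36 with 21 above 0. The count of 31 was 4 without luminal 3 (1550 of all 18948 genes) and 7 without luminal 1 (1623 of 18944). It was 9 without mixed 1 (1942 of 18938) or without mixed 3 (1992 of 18941), and 50 without basal 2 (3400 of 18960).

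The c subunits of the ATP synthase ring are encoded by Atp5g1, Atp5g2 and Atp5g3, which give the same mature protein. Atp5g3 (chromosome 2, 73738791 to 73741670, minus strand) had 1114, 908 and 1045 CPM in mixed, 361, 445 and 301 CPM in luminal and 443, 1137 and 503 CPM in basal libraries. The level of basal 2 was that of the mixed libraries, and those of basal 1 and 3 were closer to the luminal ones. Mixed minus luminal was 1.47 ± 0.31 over all libraries (log2 ± SE; edgeR, adjusted p = 0.007) and 0.24 with the series as a term (edgeR, adjusted p = 0.89), and mixed minus basal was -0.15 within series A. Atp5g1 likewise had basal 2 with the mixed libraries, at 94.2 to 128 CPM in mixed, 26.7 to 58.3 CPM in luminal, and 50.2, 145 and 54.9 CPM in basal libraries, and Atp5g2 was scarce in all groups, at 2.54 to 6.09 CPM.

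Among paralogs of complex IV, the ubiquitous forms made up nearly all counts. Cox4i1 had 984, 784 and 870 CPM in mixed, 551, 764 and 441 CPM in luminal and 335, 799 and 428 CPM in basal libraries and was called in no comparison over all libraries. Its hypoxia-responsive paralog Cox4i2 had 15.6, 11.6 and 9.69 CPM in mixed, 1.94, 4.09 and 1.49 CPM in luminal and 2.99, 7.33 and 2.93 CPM in basal libraries. The mixed libraries were the highest 3, next to basal 2. Mixed minus luminal was 2.29 ± 0.50 (log2 ± SE; edgeR, adjusted p = 0.008) and 1.36 with the series as a term (edgeR, adjusted p = 0.65); mixed minus basal was 1.48 ± 0.49 over all libraries (edgeR, adjusted p = 0.071), 0.75 within series A (edgeR, adjusted p = 0.61) and 2.04 without basal 2 (edgeR, adjusted p = 0.014). The muscle form Cox7a1 was scarce, with 5.49 to 5.72 CPM in mixed, 2.05 to 3.32 CPM in luminal and 1.47 to 3.97 CPM in basal libraries, while Cox7a2 had 265 to 359, 140 to 264 and 133 to 311 CPM in mixed, luminal and basal libraries. Cox6a1, Cox6b1, Cox7b and Cox8a, the forms found in most tissues, were each higher in mixed than in luminal aggregates by 0.96 to 1.11, and with the series as a term their differences were -0.15 to 0.11.

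The catalytic subunits of ATP synthase differed little between groups. Atp5b, the beta subunit, had 1679, 1558 and 1552 CPM in mixed, 1584, 1718 and 1650 CPM in luminal and 1816, 2119 and 2110 CPM in basal libraries, and Atp5a1, the alpha subunit, had 831, 775 and 775 CPM in mixed, 765, 736 and 799 CPM in luminal and 898, 1066 and 1002 CPM in basal libraries. For both genes every basal library lay above every other library, but no difference passed the test over all libraries (Atp5b luminal minus basal -0.29 ± 0.15 SE; edgeR, adjusted p = 0.20). The complex I core subunits Ndufs1 and Ndufv1, with iron-sulfur or flavin centres, were likewise called in no comparison over all libraries, at 76.0 to 191 CPM.

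**Figure D4:**
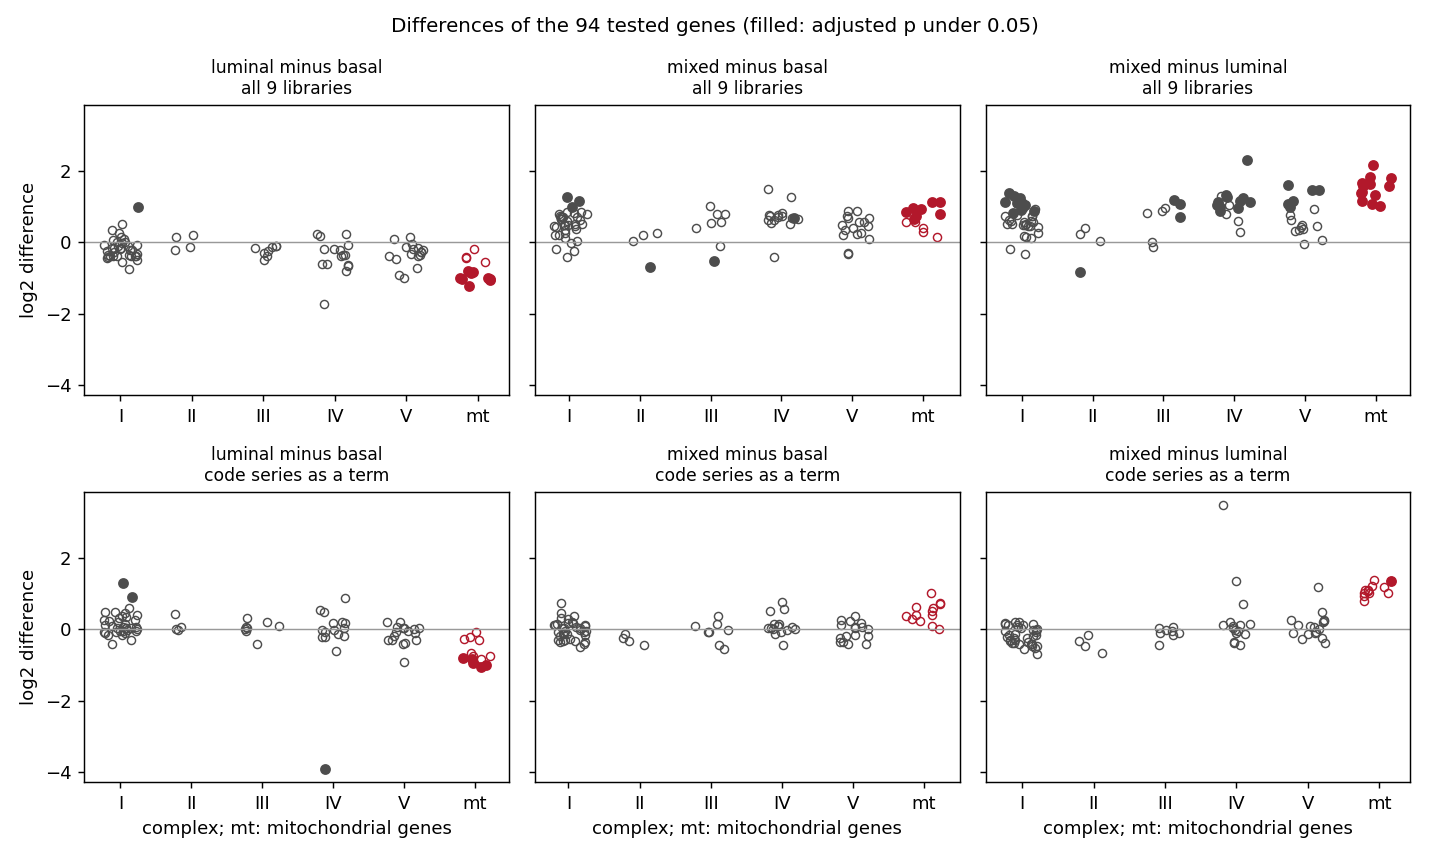
Log2 differences of the 94 tested genes for luminal minus basal, mixed minus basal and mixed minus luminal, fitted over all 9 libraries (top) and with the code series as a term (bottom). Nuclear genes are grouped by complex in grey and mitochondrial genes (mt) are red; filled points passed an adjusted p of 0.05. In the top row 31 nuclear genes are called higher in mixed than in luminal libraries, in the bottom row 0, while the mitochondrial genes lie at 1.02 to 2.15 (top) and 0.80 to 1.38 (bottom).

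The nuclear sums of short and long coding sequences spread differently within groups. The 72 nuclear genes with a coding length under 1000 bases summed to 17512, 14631 and 17332 CPM in mixed, 8903, 12150 and 7377 CPM in luminal and 7656, 16746 and 9023 CPM in basal libraries. The 11 genes of 1000 bases or more summed to 4401, 4134 and 3983 CPM in mixed, 4203, 4401 and 4345 CPM in luminal and 4634, 5501 and 5216 CPM in basal libraries. The short genes set basal 2 apart from basal 1 and 3 and luminal 2 apart from luminal 1 and 3, while the sums of the long genes were nearer to level, with every basal sum above every mixed one. Single long genes went both ways. The longest annotated coding sequences of Ndufv3 and Ndufa10 have 1404 and 1065 bases. On the log2 scale these genes were 1.09 and 0.88 higher in basal 2 than in basal 1 and 3. Sdha (1992 bases) was lowest in basal 2 among basal libraries.

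The same held within basal aggregates gene by gene. Basal 2 minus the mean of basal 1 and 3, as log2(CPM + 0.5), had a median of 1.07 over 20 nuclear members with a coding length under 300 bases, 0.97 over 39 of 300 to under 600 bases, 0.77 over 9 of 600 to under 1000 bases, 0.52 over 7 of 1000 to under 1500 bases and 0.02 over 4 of 1500 bases or more. Over all 13690 tested genes with a coding length the medians were 0.72, 0.58, 0.27, 0.03 and -0.21 in the same classes, so the members' median lay above that of all genes in each class and the order of the classes was shared. Luminal 2 minus luminal 1 and 3 gave 0.73 for members under 300 bases and -0.24 for those of 1500 or more (all genes 0.44 and -0.17). Luminal 1 minus basal 1 and 3, all of series B, gave -0.01 and -0.21 (all genes 0.09 and -0.06). Across the 79 members, Pearson's r of the difference with log2 coding length was -0.57 in basal 2, -0.69 in luminal 2 and -0.02 between luminal 1 and basal 1 and 3. For mixed minus basal 2, all of series A, r was -0.595 over the members and 0.021 over all genes. For mixed minus luminal it was -0.719 over the members and -0.103 over all genes. Genes share these libraries and are not independent replicates.

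**Figure D5:**
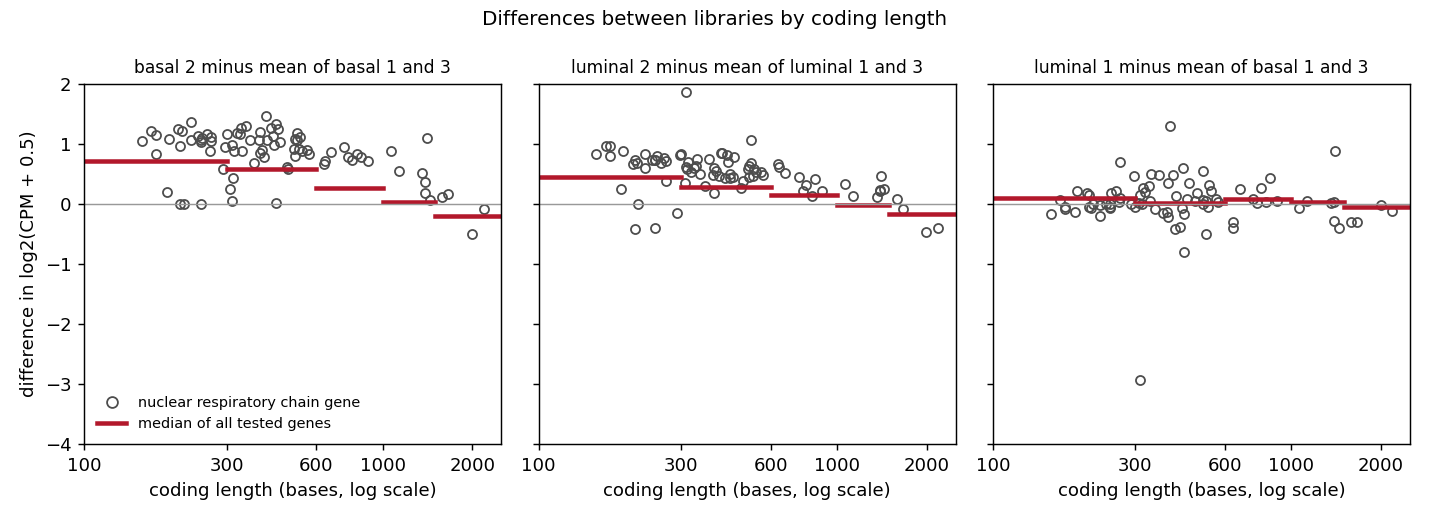
Difference in log2(CPM + 0.5) against coding length (bases, log axis) for basal 2 minus the mean of basal 1 and 3, luminal 2 minus the mean of luminal 1 and 3, and luminal 1 minus the mean of basal 1 and 3. Circles are the 83 nuclear respiratory chain genes with a coding length, untested ones included, and red lines are medians of all 13690 tested genes in 5 length classes. Short genes lie above long ones in the first 2 panels, where the all-gene medians run from 0.72 to -0.21 and from 0.44 to -0.17, and no such slope is seen in the third.

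After the trend with coding length was taken out of each library, a setting chosen after seeing the data, the nuclear and mitochondrial genes still differed. The mitochondrial genes were lower in luminal than in basal aggregates for 11 of 13 (median -0.75; 19.8% of all genes called lower), higher in mixed than in basal aggregates for 9 (0.64; 10.4% of all genes called higher) and higher in mixed than in luminal aggregates for 12 (1.35; 18.9% of all genes called higher). For mixed minus basal, mt-Nd4l (-0.37) and mt-Atp8 (-0.06) then lay below 0. Against luminal aggregates, mt-Nd4l was the gene not called (0.36, edgeR adjusted p = 0.29). Of 79 nuclear genes, the luminal to basal comparison called 2 higher and 7 lower (median -0.12; 18.4% and 19.8% of all genes), the mixed to basal comparison 4 and 1 (0.20; 10.4% and 9.41%), and the mixed to luminal comparison 18 and 1 (0.30; 18.9% and 17.3%). Ndufa6 (1.14) and Ndufa7 (0.50) were the 2 higher in luminal aggregates, and Atp5g1 (-0.83), Atp5g3 (-0.73), Ndufa5 (-0.55), Atp5a1 (-0.44), Uqcrc1 (-0.44) and Cox6c (-0.36) were among the 7 lower.

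Genes that act on or beside the chain were grouped in lists, and their single-gene calls were counted in the same fits as above. No list was tested as a whole. The other tools were not summarised for these lists. Their counts stand beside 12.8% of all genes called higher and 14.4% called lower in luminal against basal aggregates (7.09% and 6.8% within series B). The lists lay below these shares, except that the list with mitophagy and pyruvate dehydrogenase kinase genes lay above the share of higher genes. Import, chaperone and membrane genes lay above the share of lower genes over all libraries, but not within series B. Of 43 tested genes for mitochondrial DNA maintenance, transcription, RNA handling and translation, luminal aggregates had 0 higher than basal aggregates (3 at an unadjusted p under 0.05). They had 1 lower, Tbrg4 (-1.09, edgeR adjusted p = 0.013), a gene of mitochondrial RNA processing. Its call ended within series B (-0.83, edgeR adjusted p = 0.24). Tfam, which packages mitochondrial DNA and starts its transcription, had 61.9, 51.3 and 52.7 CPM in mixed, 40.5, 38.6 and 41.4 CPM in luminal and 42.6, 58.9 and 48.5 CPM in basal libraries (mixed minus luminal 0.46; edgeR, adjusted p = 0.066). Polg, the mitochondrial DNA polymerase, was lower in mixed aggregates than in those of basal cells (-1.37; edgeR, adjusted p = 0.036), but basal 2 at 32.7 CPM lay with the mixed libraries at 30.4, 32.9 and 14.98 CPM, against 94.3 CPM in basal 1 and 75.0 CPM in basal 3.

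Among 15 regulators of mitochondrial biogenesis, Ppargc1a, which encodes PGC-1alpha, was higher in luminal than in basal aggregates. It had 4.23, 7.26 and 8.61 CPM in mixed, 16.0, 12.8 and 13.8 CPM in luminal and 4.21, 3.20 and 2.82 CPM in basal libraries. The luminal libraries did not overlap the others, and basal 2 lay with basal 1 and 3. Luminal minus basal was 2.06 ± 0.34 (log2 ± SE; edgeR, adjusted p = 0.0011) and 2.19 within series B (edgeR, adjusted p = 0.020). Luminal aggregates were thus higher in Ppargc1a and lower in mitochondrially encoded subunits than basal aggregates. The host cell factor gene Hcfc1 (-0.88) and the GABP subunit gene Gabpb2 (-0.64) were lower over all libraries, neither was called within series B (-0.83 and -0.35; edgeR, adjusted p of 0.075 and 0.53), and Nrf1, Gabpa and Esrra were not called between the pure groups.

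A further list held 11 tested genes tied to mitophagy or to low oxygen, with the pyruvate dehydrogenase kinases among them. Of these, luminal aggregates had 6 higher and 1 lower than basal aggregates, with a median of 0.92. Within series B there were 3 higher, Bnip3, Pdk2 and Bnip3l, and 0 lower by edgeR (1 at an unadjusted p under 0.05). Bnip3, a mitophagy receptor induced by low oxygen, had 27.8, 31.1 and 30.8 CPM in mixed, 48.2, 66.9 and 66.4 CPM in luminal and 8.17, 11.5 and 7.99 CPM in basal libraries, so the 3 groups did not overlap and mixed libraries lay between the pure ones. The difference was 2.72 ± 0.21 (log2 ± SE; edgeR, adjusted p = 4.7e-06) and 2.58 within series B (edgeR, adjusted p = 0.00012). Pdk4 (2.75), Pdk2 (1.62), Pdk1 (1.11), Bnip3l (0.92) and Pink1 (0.78) were the others higher, and Pdk3 (-1.34) was lower; the Pdk enzymes switch off entry of pyruvate into the citric acid cycle. Of 19 genes of that cycle and of pyruvate dehydrogenase, Idh2 was higher (0.65; within series B 0.99) and Idh3a (-0.75) and Cs (-0.54) were lower over all libraries but not called within series B (-0.60 and -0.55; edgeR, adjusted p of 0.063 and 0.2). Of 22 genes of mitochondrial import, chaperones and membrane structure, 5 were lower over all libraries, 3 without basal 2 and 1 within series B, among them the chaperonin pair Hspe1 (-1.41; within series B -1.03; edgeR, adjusted p = 0.074) and Hspd1 (-1.14; within series B -0.95; edgeR, adjusted p = 0.027), and 0 were higher (1 at an unadjusted p under 0.05).

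Assembly factors and partners outside the name rule were called in both directions. Of 52 assembly factors, luminal aggregates had 1 higher and 5 lower than basal aggregates, with Cmc2 (-1.38) and Ndufaf2 (-1.28) the lowest. Within series B, 0 were called by edgeR, and 2 were higher and 2 lower at an unadjusted p under 0.05. Of 20 partners, which include cytochrome c, cytochrome c1 and the ubiquinone synthesis genes, 2 were higher and 2 lower, Pdss1 (-1.47), which makes the ubiquinone side chain, being the lowest. Within series B, 0 partners were called by edgeR, Pdss1 included (-1.37; edgeR, adjusted p = 0.12), and 2 were higher and 1 lower at an unadjusted p under 0.05. In mixed against luminal aggregates, Cycs, which encodes cytochrome c, was higher (1.28; edgeR, adjusted p = 0.0073; 0.42 with the series as a term).

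Some nuclear counts are uncertain because of near copies or overlaps. The pseudogene name Cox5b-ps collected 235 to 288 CPM in mixed, 82.2 to 152 CPM in luminal and 104 to 277 CPM in basal libraries, more than Cox5b itself at 68.7 to 90.0, 29.4 to 47.7 and 37.9 to 90.2 CPM. Another pseudogene name, Atp5pb-ps, had 97.5 to 210 CPM over all libraries beside 184 to 363 CPM for Atp5pb. Other gene names cover 43.8% of the exon bases of Atp5o, 39.0% of Ndufb6 and 30.0% of Ndufa13.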

How the data were processed

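RNA of 9 samples was sequenced with a stranded mRNA kit, per the labels. The deposited table holds raw counts of read pairs per gene name, made by the authors with featureCounts 2.0.1 over exons without strand, leaving out pairs with several alignments or genes, per the file headers; Trim Galore, Subread and build mm39 are named in the submitters' processing notes, and the sources used here do not give aligner settings or annotation release.

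Members and gene lists were chosen with earlier results of these data known. Counts were fitted in R 4.3.3 with edgeR 4.0.16 (filterByExpr, TMM, robust quasi-likelihood test, two-sided, 3 groups, 6 residual degrees of freedom), adjusted by Benjamini-Hochberg over 18051 genes at 0.05. SE is that of the fitted coefficient. The code series as a term left 4 residual degrees of freedom. CPM are TMM-scaled without a pseudocount. Alternatives used DESeq2 1.42.0 and limma 3.58.1. The test was checked on simulated counts. Coding lengths came from GENCODE M21, as the longest coding sequence among the transcripts of each gene. Counts limit precision at low levels: 3 counts are 0.15 to 0.19 CPM, for counting error only.

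Named genes were all mitochondrial members, core subunits, paralog pairs, and up to 6 highest and 6 lowest called nuclear members per comparison, with up to 3 each way from other lists. Ndufs5 (for its motif), Ndufa7, Cox6c and the pseudogene names were chosen after their values were seen. Title numbers did not pair libraries (r of group-centred values between same-numbered libraries -0.16 to 0.20; 4 of 9 correlated best with their own number), and no libraries were duplicates. Values of some single members are not reported here.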

Additional observations from a re-analysis of the deposited data

How the results depend on the processing

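Most counts of called genes, nuclear and mitochondrial, depended on the code series or on single libraries. The directions of the mitochondrial medians did not change in any alternative run, whereas those of the nuclear medians turned with the series as a term. With the code series as a term, nuclear genes called higher numbered 2 for luminal against basal (1 over all libraries), 0 for mixed against basal (4) and 0 for mixed against luminal (31), and the nuclear medians of the mixed comparisons were -0.0054 (0.55) and -0.082 (0.76). Mitochondrial genes called were then 5 lower in luminal than basal (9), 0 higher in mixed than basal (8; median 0.40) and 1 higher in mixed than luminal (13; median 1.08). Without basal 2 and mixed 3, nuclear genes called higher were 3 in luminal and 55 in mixed against basal (2749 and 2525 of all 18652 genes). For mixed against basal, nuclear genes called higher were 10 by DESeq2 (1664 of all 18007 genes) and 11 by limma-voom (1427 of 18051). They were 33 without the filter (1713 of 33929) and 7 with at least 10 counts in every library (1204 of 12999). For mixed against luminal, they were 47 without the filter (2987 of 33929) and 50 when only both groups were fitted (3114 of 16772). Tested against a 1.5-fold change, nuclear genes higher were 0, 0 and 3 for luminal against basal, mixed against basal and mixed against luminal. Of all 18051 genes, 1257, 510 and 1279 were higher. In the same test, 4 mitochondrial genes were lower in luminal against basal (1628 of all genes) and 1 was higher in mixed against basal. With the coding length trend removed, nuclear genes higher were 2 in luminal against basal (18.4% of all genes) and 18 in mixed against luminal (18.9% of all genes, nuclear median 0.30).

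Leaving out single libraries gave 0 to 2 nuclear genes higher and 6 to 9 mitochondrial genes lower in luminal than basal (medians -0.44 to 0.10 and -0.97 to -0.82), 0 to 60 nuclear and 1 to 11 mitochondrial genes higher in mixed than basal (0.37 to 0.97 and 0.62 to 0.78), and 4 to 50 nuclear and 13 to 13 mitochondrial genes higher in mixed than luminal (0.60 to 0.96 and 1.37 to 1.56). Of all genes, 1642 to 2533 were then called higher and 1907 to 2860 lower in luminal than basal. In mixed libraries, 558 to 2627 were higher than in basal and 1550 to 3400 higher than in luminal, of 18853 to 19030 tested. With the title number as a replicate block, nuclear genes higher were 1, 6 and 40 in these comparisons (2154, 1119 and 2695 of all 18051 genes). Mitochondrial genes called were 9 lower in luminal than basal (2394 of all genes), 8 higher in mixed than basal and 13 higher in mixed than luminal. The block ended the calls of Sdha, Uqcrc1 and Cox7c in mixed against basal. Libraries scaled by size only moved the median of all genes to -0.17 and -0.22 for luminal and mixed against basal (-0.02 and -0.07 by TMM), and the share of higher calls among all called genes to 35% (47%) and 33.6% (46.5%); the nuclear medians were then -0.34 and 0.43 and the mitochondrial ones -1.02 and 0.57. Without the filter the median of all genes for mixed against luminal was -0.31.

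For all members called in the fit over all libraries, named here or not, 1237 alternative values kept direction and call, 306 kept direction only and 11 turned. For mixed against luminal with the series as a term these were Ndufb3 (-0.023), Cox6a1 (-0.03), Ndufa5 (-0.026), Cox6b1 (-0.052), Ndufa12 (-0.13), Uqcrq (-0.013), Uqcrfs1 (-0.11), Ndufs4 (-0.082), Atp5j (-0.15) and Cox8a (-0.15), and with the coding length trend removed Cox7c (-0.015). The cause was not tested. Ratio differences of both sums kept their sign without the most abundant member of each kind, but per kilobase of exon mixed minus basal was -0.05 (0.13 from counts).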
